A study of Homo sapiens with 6 samples.

Results

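The replication-dependent histone genes were described in RD cells, an established embryonal rhabdomyosarcoma (ERMS) line, with and without knockdown of the kinase TAK1. The 90 genes, of 58735 in the count table, were those whose symbol begins with HIST1H, HIST2H, HIST3H or HIST4H. The control group was 3 samples transduced with lentivirus carrying scrambled shRNA, and the knockdown group was 3 samples transduced with lentivirus carrying TAK1 shRNA. A single TAK1 shRNA construct was sequenced in a single cell line, and a scrambled shRNA was the reference for both the virus and the hairpin. The labels do not say that the 3 samples of a group came from separate cultures or transductions, so the p-values measure the spread between these samples, which may be technical. Poly(A)-tailed mRNA was enriched before sequencing.

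Histone cluster genes encode the bulk of the H1, H2A, H2B, H3 and H4 proteins that package newly made DNA, and they are transcribed mainly in S phase. Their mRNAs are the exception among metazoan messages in that they carry no poly(A) tail. The message ends instead just past a conserved stem-loop, which is bound by the stem-loop binding protein SLBP and cut by a complex guided by the U7 small nuclear RNA. Several of the genes also give longer, polyadenylated transcripts when cells differentiate or leave the cycle. Enrichment on the poly(A) tail therefore captures little of the tail-less form, and levels given here are levels of captured RNA.

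The libraries held between 28839898 and 34469323 counts. MAP3K7, which encodes TAK1, fell from 77.3 ± 0.743 CPM in the control samples to 31.3 ± 2.00 CPM with TAK1 shRNA (mean ± SD, n = 3 each), a log2 fold change of -1.30 (SE 0.062, adjusted p = 4.45e-14, edgeR). CPM is the count of a gene per 1000000 counts of the normalized library. The skeletal muscle lineage markers MYOD1, MYOG, DES, PAX7 and CDH15 had means between 136 and 351 CPM, while MYF5 had 0 counts in every library. Of the 6 markers of blood, endothelial and epithelial cells, EPCAM was the highest with a mean of 0.234 CPM, and CD3E and CDH5 were at 0. MYOD1 (log2 fold change 0.37, adjusted p = 8.155e-07) and MYOG (0.27, adjusted p = 0.000153) rose with the knockdown, and their part in the histone results was not tested.

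Most histone cluster genes were scarcely captured. A mean of at least 1 CPM was reached by 13 of the 90 genes (14.4%), against 22.9% of all rows in the table. At least 10 counts in every library were found for 21 genes, against 14529 of the 58735 rows. At least 1 count in any library was found for 67, against 29336 of all rows, and 23 genes had 0 counts in all 6 libraries. By edgeR's default expression filter the share was 38.9% of the 90 genes against 27.1% of all rows. How the members compare with all rows thus depends on the threshold. Together the 90 genes took between 1851 and 2515 counts per library, a share of 0.00642% to 0.00757%. The 12 histone variant genes, which lie outside the clusters and mostly give ordinary polyadenylated mRNA, took 0.233% to 0.261% of the same libraries, and 11 of the 12 reached a mean of 1 CPM.

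Detection by histone class was described without a test, and the order of the classes depended on the threshold. The default expression filter of edgeR was passed by 3 of 8 H1, 7 of 23 H2A, 15 of 26 H2B, 7 of 17 H3 and 3 of 16 H4 genes. A mean of 1 CPM was reached by 1 of 8 H1 genes, 5 of 23 H2A genes, 5 of 26 H2B genes, 1 of 17 H3 genes and 1 of 16 H4 genes. Of the 71 protein-coding members 12 reached this level, and of the 19 pseudogenes 1 did, namely HIST2H2BC. By location, the counts were 9 of 68 for the HIST1 cluster on chromosome 6, 3 of 17 for HIST2 and 1 of 4 for HIST3, both on chromosome 1, while HIST4H4 on chromosome 12 stayed below it. The 5 genes known for polyadenylated transcripts outside S phase, HIST1H1C, HIST1H2AC, HIST1H2BD, HIST1H2BK and HIST2H2BE, were all among the 13. Of the 4 genes known from testis, HIST1H1T, HIST1H2AA, HIST1H2BA and HIST3H3, none reached a mean of 1 CPM, and the highest, HIST1H2BA, had a mean of 0.653 CPM.

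A count of 0 did not mean the same for every gene. Of the 23 genes at 0, 11 were pseudogenes and 12 were protein-coding. Among the 12, HIST2H3A, HIST2H3C, HIST2H2AA4 and HIST2H4B share over 90% of their 75-base exon windows with another gene, so that a read of that length from them has more than 1 place to go. HIST1H3D, HIST1H2AD, HIST1H2AM and HIST2H3PS2 overlap another annotated gene on the same strand. HIST1H1T, HIST1H4F, HIST1H4G and HIST1H2AK had neither limit, and for these a count of 0 allows at most 3 counts, or 0.087 to 0.104 CPM depending on the library, for counting error only.

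The captured reads were concentrated in few genes. The 5 genes with most reads held 44.7% to 47.2% of the histone cluster counts in each library and the 10 with most reads held 67.6% to 72.4%. Per kilobase of annotated exon, HIST1H2BK, an H2B gene, had the highest mean level at 20.5 CPM per kilobase. It was followed by the linker histone gene HIST1H1C at 9.27, the H2B gene HIST1H2BH at 8.65, the H2A gene HIST2H2AC at 8.61 and the H4 gene HIST1H4I at 7.71 CPM per kilobase. HIST1H2BK shares 39.0% of its windows with 9 other genes, which limits how surely its reads were assigned.

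**Figure D1:**
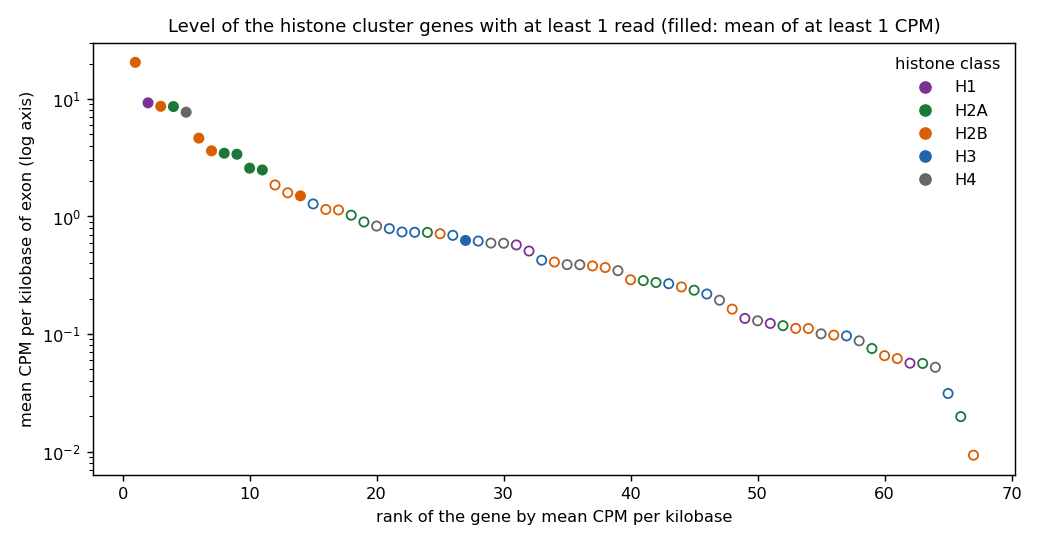
Mean level of the 67 histone cluster genes with at least 1 read, in CPM per kilobase of exon on a log axis, against the rank of the gene, coloured by histone class and filled where the mean was at least 1 CPM. A steep head of a few genes, led by HIST1H2BK at 20.5 CPM per kilobase, is followed by a long tail of genes near or below 1.

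The stem-loop that replaces the poly(A) tail was searched in the 300 bases past the stop codon, as a run of 16 letters in which 2 bases of each arm of the stem and the last base of the loop were left free. It was found in 68 of 71 member genes with an annotated stop codon (95.8%), and in 3 of 19840 other protein-coding genes (0.0151%), which were H2AFX (H2AX in the newer naming), TIPARP and ZNF544. Among all members, the form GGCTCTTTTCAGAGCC was the commonest, with 45 genes. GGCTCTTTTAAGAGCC followed with 11 genes. The H4 genes had forms of their own, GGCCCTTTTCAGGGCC in 10 genes and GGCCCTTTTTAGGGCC in 4. The stem-loops of the genes whose level changed, and of HIST1H2BK for comparison, are shown 5′ to 3′ from GRCh38 with the stem-loop in capitals and 5 bases on each side.
HIST1H2BD (chr6:26158582-26158607, plus strand): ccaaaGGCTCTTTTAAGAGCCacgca
HIST2H2BE (chr1:149886183-149886208, minus strand): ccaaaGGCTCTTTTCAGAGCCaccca
HIST3H2BB (chr1:228458533-228458558, plus strand): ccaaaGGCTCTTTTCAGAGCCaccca
HIST2H2AC (chr1:149887386-149887411, plus strand): ccaaaGGCTCTTTTTAGAGCCaccca
HIST1H2BH (chr6:26252050-26252075, plus strand): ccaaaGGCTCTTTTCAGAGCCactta
HIST1H2BK (chr6:27146361-27146386, minus strand): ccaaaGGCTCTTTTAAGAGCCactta

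All printed stem-loops lie in the 3′ UTR, and those of HIST2H2BE and HIST3H2BB are the same 26 letters. The annotation was then asked whether it ends the gene at the stem-loop or carries it further (GENCODE 44). In 19 genes the annotated end lay more than 100 bases past the stem-loop, in 57 it did not, and 14 genes had no match to the motif. The 57 include 5 pseudogenes, none with enough reads to be tested, whose annotation stops before the stem-loop. The limit of 100 bases was chosen after the data were seen, and no gene had an end between 23 and 109 bases past the stem-loop. Of the genes annotated past the stem-loop, 14 of 19 (73.7%) had enough reads to be tested, against 20 of 57 (35.1%) of those ending at it. The genes annotated past the stem-loop are also longer targets for reads: their median level was 0.252 CPM per kilobase, against 0.346 CPM per kilobase for those ending at it. These levels rest on GENCODE 44 lengths, which may differ from those counted.

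Whether the histone genes as a whole changed with the knockdown was asked first from their summed level, which depends less on how reads were split between members. Reads that were dropped for having several matches, or assigned to genes outside the 90, would not be in the sum. How such reads were handled is not known. The summed level of the 90 genes was 68.9, 65.0 and 68.8 CPM with scrambled shRNA and 63.3, 71.2 and 74.97 CPM with TAK1 shRNA. The groups overlapped, and the difference between the means, 2.265 CPM, was smaller than the SD of the knockdown samples (67.6 ± 2.19 against 69.8 ± 5.96 CPM, n = 3 each). With 1 sample left out the difference ran from -0.31 CPM, without knockdown replicate 3, to 5.53 CPM, without knockdown replicate 1. The same held for each class. H1 genes summed to 7.50 ± 0.533 CPM in control and 8.10 ± 1.25 CPM in knockdown samples, H2A genes to 19.4 ± 1.34 and 19.4 ± 2.32, H2B genes to 30.0 ± 0.654 and 30.8 ± 1.53, H3 genes to 5.32 ± 0.933 and 5.23 ± 0.816, and H4 genes to 5.35 ± 0.492 and 6.20 ± 1.17. In each class the 2 groups overlapped. In a bulk library, fewer cells in S phase and less histone RNA in each such cell cannot be told apart.

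The genes were then compared one by one. The 35 genes with enough reads in at least 3 libraries (38.9% of 90, against 27.1% of all rows) were tested with edgeR's quasi-likelihood test among 15935 genes, with Benjamini-Hochberg adjustment over all of them. A gene was called when its adjusted p was below 0.05 and its log2 fold change was 0.25 or more in either direction. Of the 35, 3 rose (8.57%), against 11.8% of all genes tested, and 2 fell (5.71%), against 11.3% of all genes tested. The groups did not overlap for 6 genes (17.1%), against 43.9% of all genes tested. Both the 3 genes that rose and these 6 include HIST3H2BB, which entered the test only through its knockdown samples and had to differ. The 35 genes had a median log2 fold change of 0.02, the same as that of all genes tested, with 19 above 0 and 16 below. Of the 35 genes, 23 had a mean count under 50, and the median standard error was 0.38 on the log2 scale, so changes of modest size were not detectable at this depth.

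The 4 called genes whose mean reached 1 CPM all encode H2A or H2B, and they moved in both directions. HIST1H2BD, an H2B gene of the HIST1 cluster, had 3.48, 3.30 and 2.98 CPM with scrambled shRNA and 4.55, 5.01 and 4.635 CPM with TAK1 shRNA. Every knockdown sample lay above every control sample, and the log2 fold change was 0.54 (SE 0.157, adjusted p = 0.00926). HIST2H2BE, an H2B gene of the HIST2 cluster whose polyadenylated transcript is known from differentiated cells, had 2.005, 2.70 and 2.47 CPM against 4.38, 4.50 and 3.94 CPM. Again the groups did not overlap, with a log2 fold change of 0.83 (SE 0.177, adjusted p = 0.0006475).

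HIST1H2BH, an H2B gene of the HIST1 cluster, moved the other way. It had 5.52, 5.53 and 4.61 CPM with scrambled shRNA and 2.70, 2.69 and 2.94 CPM with TAK1 shRNA. Its level fell by 0.91 on the log2 scale (SE 0.161, adjusted p = 8.56e-05), with every knockdown sample below every control sample. None of its windows is shared with another gene.

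HIST2H2AC, an H2A gene of the HIST2 cluster, had 5.275, 5.175 and 5.06 CPM with scrambled shRNA and 3.28, 3.48 and 3.24 CPM with TAK1 shRNA. The groups did not overlap, and the level fell by 0.63 on the log2 scale (SE 0.1505, adjusted p = 0.00196). The gene shares 17.9% of its windows with HIST2H2AA3 and its copy HIST2H2AA4, which together had 2 counts in all 6 libraries. These copies share 100% and 99.8% of their own windows with other genes. Their low count therefore does not show their level, or how many reads of HIST2H2AC came from them.

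HIST3H2BB, an H2B gene of the HIST3 cluster, was called on few reads. It had 4, 8 and 4 counts in the control samples and 14, 19 and 14 counts in the knockdown samples, with a log2 fold change of 1.43 (SE 0.524, adjusted p = 0.0376). It entered the test only through the knockdown samples, so it had to differ and adds nothing to the count of genes that rose. Its adjusted p was above 0.05 in each of the 6 fits that left out 1 sample, with values from 0.0507 to 0.155.

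A single exact permutation test of 3 against 3 samples cannot go below p = 0.1 (two-sided), and each of the 5 called genes had that smallest value.

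Of the 5 genes with most reads, 4 did not pass the test. HIST1H2BK had 281, 315 and 335 counts with scrambled shRNA and 282, 361 and 337 counts with TAK1 shRNA, with a log2 fold change of -0.03 (SE 0.102, adjusted p = 0.851). HIST1H1C had 6.54, 6.19 and 7.49 CPM against 6.02, 7.16 and 7.24 CPM, with a log2 fold change of 0.02 (SE 0.129, adjusted p = 0.939). These were among the most precisely measured histone genes, and their groups overlapped throughout.

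HIST3H2A, an H2A gene, had 6.40, 4.95 and 5.94 CPM with scrambled shRNA and 5.75, 7.02 and 7.51 CPM with TAK1 shRNA, with a log2 fold change of 0.24 (SE 0.139, adjusted p = 0.210). HIST1H2AC, also an H2A gene, had 4.40, 3.46 and 3.08 CPM against 4.45, 4.25 and 5.27 CPM, with a log2 fold change of 0.36 (SE 0.167, adjusted p = 0.109). Its groups overlapped through control replicate 1, and without that sample the gene passed the test, with a log2 fold change of 0.51 and an adjusted p of 0.0394 (edgeR). That was the only 1 of 16 alternatives in which HIST1H2AC passed. With other samples left out its log2 fold change was as low as 0.25.

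**Figure D2:**
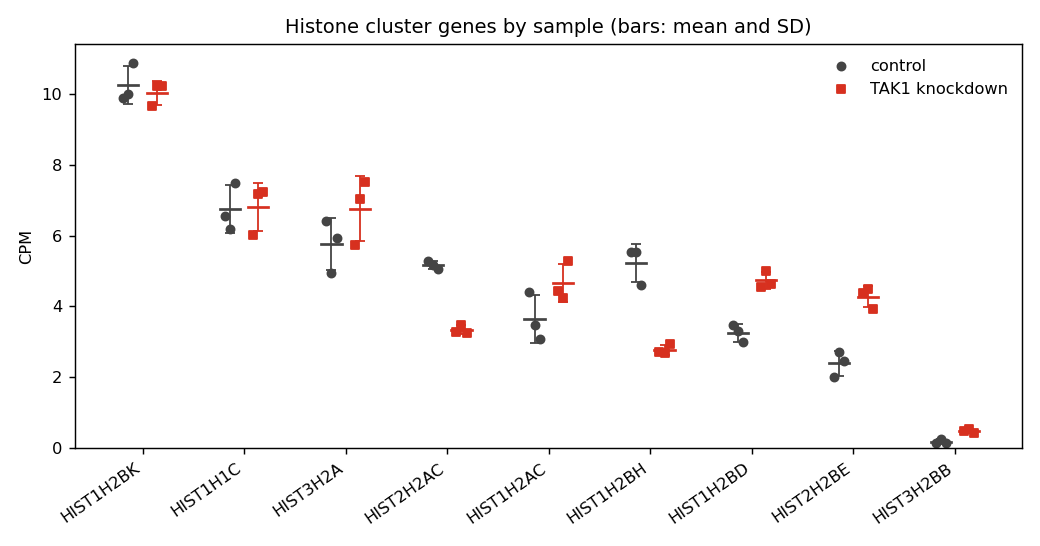
CPM of the 5 histone cluster genes with most reads and of the other called genes, with 1 point per sample and bars for the mean and SD of each group (n = 3). HIST2H2AC and HIST1H2BH were lower in all 3 knockdown samples, HIST1H2BD, HIST2H2BE and HIST3H2BB were higher in all 3, and the groups overlapped for the other 4.

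The remaining 26 tested genes did not pass the test. Among H1 genes these were HIST1H1B and HIST1H1E, with log2 fold changes of 0.66 and 0.95 and standard errors above 0.5. HIST1H1E passed the test without control replicate 2, at 1.95 with an adjusted p of 0.0381 (edgeR). The control samples left in that fit had 3 and 5 counts. HIST1H1E thus entered it only through its knockdown samples and had to differ. Over the 14 alternatives that tested this gene, its log2 fold change ran from 0.54 to 1.95. Among H2A genes HIST1H2AE, HIST1H2AG, HIST1H2AI and HIST1H2AJ lay between -0.29 and 0.42. Among H3 genes HIST1H3A, HIST1H3C, HIST1H3E, HIST1H3G, HIST1H3H, HIST1H3J and HIST2H3D lay between -0.39 and 0.58, and among H4 genes HIST1H4H, HIST1H4I and HIST4H4 lay between -0.57 and 0.47.

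The H2B genes HIST1H2BA, HIST1H2BC, HIST1H2BE, HIST1H2BG, HIST1H2BJ, HIST1H2BL, HIST1H2BN, HIST2H2BC, HIST2H2BD and HIST2H2BF lay between -0.81 and 1.01. At the upper end, HIST1H2BL had 9, 15 and 7 counts in the control samples and 14, 30 and 24 in the knockdown samples. Its CPM did not overlap between the groups, but it did not pass the test (log2 fold change 1.01, SE 0.448, adjusted p = 0.0873). At the lower end, the testis gene HIST1H2BA had 33, 29 and 13 counts against 15, 18 and 13, with a log2 fold change of -0.81 (SE 0.422, adjusted p = 0.149).

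The direction of the called genes was set beside their annotated 3′ ends. HIST2H2BE and HIST1H2BD, which rose, are annotated past the stem-loop by 1729 and 12750 bases of genome, with a poly(A) signal near the last base of at least 1 transcript. HIST3H2BB is annotated past it by 4551 bases, but it was tested only because of its knockdown samples and is left out here. The 2 genes that fell, HIST2H2AC and HIST1H2BH, have their last annotated base 5 bases past the stem-loop. HIST1H2BH also holds a poly(A) signal within 50 bases of that end. Over the other 13 tested genes annotated past the stem-loop the median log2 fold change was 0.21, with 2 called higher (15.4%, against 11.8% of all genes tested) and 0 called lower. Over the 20 tested genes annotated to the stem-loop it was -0.06, with 0 called higher and 2 called lower (10%, against 11.3% of all genes tested). These shares are near those of all genes tested, and no test was made between the sets.

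Without HIST3H2BB, the 18 genes annotated past the stem-loop summed to 24.3, 21.2 and 22.8 CPM with scrambled shRNA. With TAK1 shRNA they summed to 24.96, 29.4 and 29.2 CPM (22.8 ± 1.58 against 27.9 ± 2.52, n = 3 each). The knockdown samples all lay above the control samples, the nearest pair being 24.3 and 24.96 CPM. The sum includes the called genes HIST2H2BE (group means 2.39 and 4.27 CPM) and HIST1H2BD (3.26 and 4.73 CPM), so it is not separate from their calls. The 57 genes annotated to the stem-loop summed to 42.55, 42.4 and 43.6 CPM against 35.4, 38.9 and 43.3 CPM. In this set the groups overlapped, since knockdown replicate 3 lay within the range of the control samples. The set includes HIST1H2BK and HIST1H1C, with control means of 10.25 and 6.74 CPM, both known for polyadenylated transcripts. The split by annotated end is thus not a split into tail-less and polyadenylated transcripts. The tables count reads per gene, so a read from a tail-less transcript and one from a longer transcript of the same gene were not told apart.

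**Figure D3:**
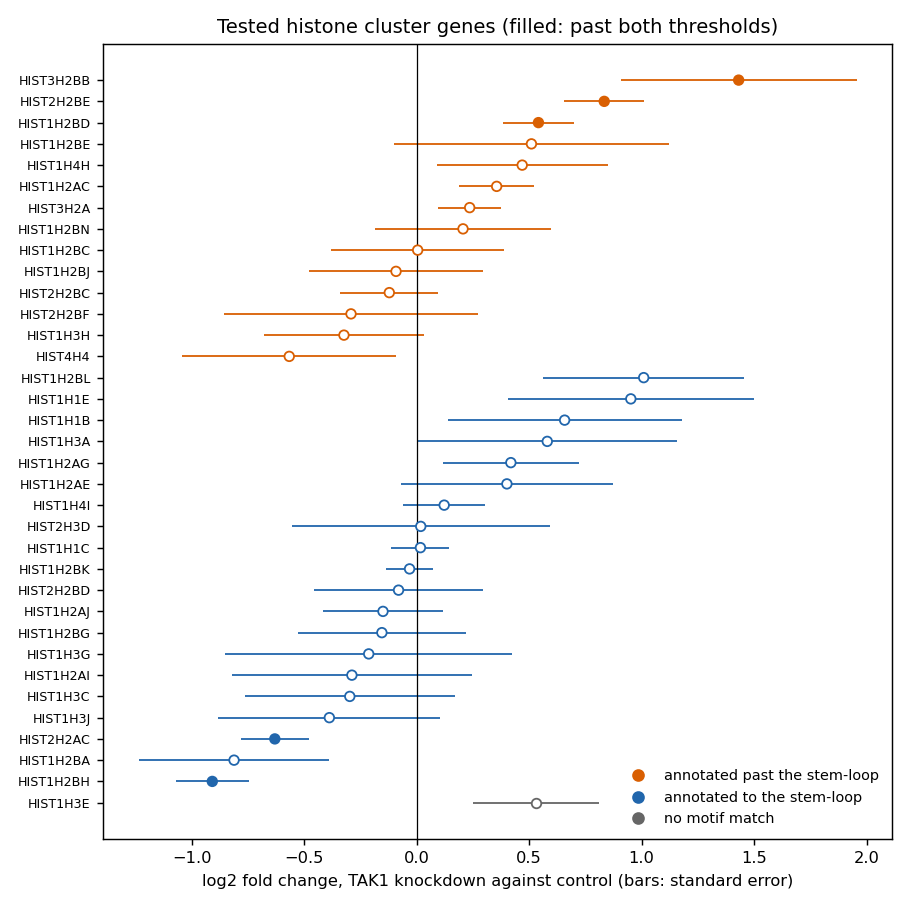
Log2 fold change of the 35 tested histone cluster genes in TAK1 knockdown against control samples, with bars for the standard error, grouped by whether GENCODE 44 ends the gene at the stem-loop and filled where the gene passed both thresholds. Open symbols lie on both sides of 0 in both sets. Of the filled genes above 0, HIST3H2BB entered the test only through its knockdown samples.

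Many histone genes lie head to head as H2A and H2B pairs that share the stretch between their start sites. There were 17 such pairs with annotated starts within 500 bases of each other. In 6 of them both genes could be tested, and in 1 pair, HIST2H2BE and HIST2H2AC, both genes were called, in opposite directions. In HIST2H2BE counts per HIST2H2AC count, the control samples had 0.380, 0.521 and 0.487 and the knockdown samples had 1.33, 1.29 and 1.21. HIST2H2AC thus had more counts than HIST2H2BE in each control sample and fewer in each knockdown sample. In the HIST3 pair, HIST3H2A had 45.5, 19.5 and 45.75 counts per HIST3H2BB count in the control samples and 12.0, 13.1 and 17.7 in the knockdown samples, on the low counts of HIST3H2BB given above.

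**Figure D4:**
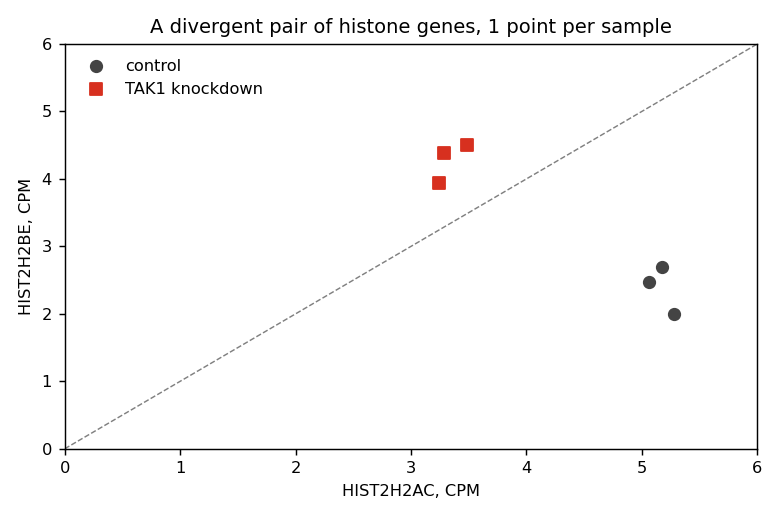
CPM of HIST2H2BE against CPM of its head-to-head neighbour HIST2H2AC, with 1 point per sample and a dashed line where the CPM are equal. The 3 control samples lie below the line and the 3 knockdown samples above it.

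The stretch that separates the starts of this pair is shown as a description, and its part in the opposite changes of captured RNA was not tested. It runs 235 bases from the start of HIST2H2BE, on the minus strand, to that of HIST2H2AC, on the plus strand (GRCh38, chr1:149886683-149886917, plus strand shown 5′ to 3′). Capitals mark the TATA box TATAAA, the CCAAT box CCAAT and the octamer ATGCAAAT on either strand.
HIST2H2BE to HIST2H2AC: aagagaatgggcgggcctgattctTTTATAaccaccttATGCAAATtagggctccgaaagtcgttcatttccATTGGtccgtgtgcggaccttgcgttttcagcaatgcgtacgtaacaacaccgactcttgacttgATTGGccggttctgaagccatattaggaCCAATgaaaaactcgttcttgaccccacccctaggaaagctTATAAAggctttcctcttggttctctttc

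The stretch holds 2 TATA boxes, 1 near each end, 3 CCAAT boxes and 1 octamer, which stands near the HIST2H2BE end. The octamer is the site read by POU2F1 in H2B genes. Over the 70 histone cluster promoters in RefSeq's GRCh38 table (250 bases before the start to 50 after), 47 held a TATA box (67.1%), 60 a CCAAT box (85.7%) and 27 an octamer (38.6%). Over all 35116 promoters of the same length the shares were 11.5%, 34.6% and 1.77%. Among the 70, HIST1H2BD, HIST1H2BK, HIST1H3D and HIST1H3E have more than 1 entry. Promoters of head-to-head pairs also overlap, so some boxes and octamers were counted more than once. A match of letters is a description and no proof of binding.

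Of 26 factors that make, process or turn over histone mRNA, 17 had a log2 fold change below 0, 8 fell (30.8%, against 11.3% of all genes tested) and 0 rose (11.8% of all genes tested). Of 10 genes for histone gene transcription, 4 fell (40%, against 11.3% of all genes tested) and 0 rose. Those that fell were NPAT, the coactivator that cyclin E and CDK2 phosphorylate at histone gene clusters (log2 fold change -0.30, SE 0.073, adjusted p = 0.002525), CDK2 itself (-0.42, adjusted p = 7.295e-06), the cyclin gene CCNE2 (-0.71, adjusted p = 0.000310) and CASP8AP2, a component of the histone locus body (-0.25, adjusted p = 0.0125). CASP8AP2 lay at the fold threshold and did not pass it under several alternatives. HINFP, the activator of H4 genes, named here after its values were seen, was at 0.24 (adjusted p = 0.0347), just short of the fold threshold, and was called higher under 5 of 16 alternatives.

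Of 16 genes for the 3′ end, translation and decay of histone mRNA, 4 fell (25.0%, against 11.3% of all genes tested) and 0 rose. SLBP, the protein that binds the stem-loop, fell from 94.3 ± 4.21 to 71.9 ± 1.97 CPM (n = 3 each, log2 fold change -0.39, SE 0.053, adjusted p = 2.58e-06). NCBP2, a subunit of the cap-binding complex, fell by 0.42 on the log2 scale (adjusted p = 3.07e-07). CSTF2, which takes part in both polyadenylation and histone mRNA cleavage, fell by 0.43 on the log2 scale (adjusted p = 4.02e-05). ERI1, the exonuclease that trims the histone mRNA end, fell by 0.25 on the log2 scale (adjusted p = 0.00603), at the fold threshold.

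The U7 particle genes and their partner showed smaller values. LSM11 was lower by a log2 fold change of -0.19 (adjusted p = 0.0396), short of the fold threshold. LSM10 was at 0.01 (adjusted p = 0.951) and ZNF473, a protein that binds the U7 particle, at 0.02 (adjusted p = 0.805). Over the 26 genes of both lists the median log2 fold change was -0.07, against 0.02 for all genes tested.

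The machinery of ordinary polyadenylation, which sets how much of a longer transcript receives a tail, was described in the same way. Of 15 genes, 2 fell (13.3%), a share near the 11.3% of all genes tested, and 0 rose. NUDT21, a subunit of cleavage factor I, fell from 154 ± 4.19 to 119 ± 4.92 CPM (log2 fold change -0.37, adjusted p = 1.475e-06, edgeR, n = 3 each), and CLP1, of cleavage factor II, fell by 0.50 on the log2 scale (adjusted p = 2.04e-05). The median over the 15 genes was -0.04.

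The histone variants, made outside S phase too and captured by their poly(A) tails, were lower wherever they were called. Their summed level was 2666, 2638 and 2634 CPM with scrambled shRNA and 2375, 2269 and 2307 CPM with TAK1 shRNA. The groups did not overlap (2646 ± 17.6 against 2317 ± 53.6, n = 3 each). The sum includes the called genes named below and is not separate from their calls. Over the 11 tested variants, 8 had a log2 fold change below 0 and 3 above. Of 11 tested variants, 3 fell (27.3%, against 11.3% of all genes tested) and 0 rose. Those that fell were H1F0, the linker histone of resting and differentiated cells (489 ± 4.715 to 336.5 ± 5.17 CPM, log2 fold change -0.54, adjusted p = 2.44e-10), H3F3B, which encodes H3.3 (-0.37, adjusted p = 3.12e-07), and H2AFZ, which encodes H2A.Z (-0.29, adjusted p = 1.23e-05).

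H3F3A, which also encodes H3.3, had a log2 fold change of 0.04 (adjusted p = 0.569). CENPA, the centromeric H3, was at -0.21 (adjusted p = 0.00872) and H2AFX, whose product is phosphorylated at DNA breaks and whose mRNA carries the stem-loop too, was at -0.13 (adjusted p = 0.0405), both short of the fold threshold. H1FX, a linker histone, was at -0.11 (adjusted p = 0.133).

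Among 25 histone chaperones and their partners, 5 fell (20%, against 11.3% of all genes tested) and 0 rose, with a median log2 fold change of -0.10. ASF1B fell by 0.54 (adjusted p = 5.79e-08) and its relative ASF1A by 0.36 on the log2 scale (adjusted p = 0.000581). Both hand H3 and H4 to the assembly factors. HJURP, the chaperone of CENPA, fell by 0.45 on the log2 scale (adjusted p = 9.07e-08), ANP32E, a chaperone of H2A.Z, by 0.27 (adjusted p = 5.45e-05), and SUPT16H, a subunit of FACT, by 0.26 (adjusted p = 6.58e-05). The CAF-1 subunit genes CHAF1A and CHAF1B were at -0.19 (adjusted p = 0.00486) and -0.15 (adjusted p = 0.0965), and NASP, which keeps a store of H3 and H4, was at -0.08 (adjusted p = 0.269). CABIN1, a subunit of the HIRA complex, named here after its values were seen, was at 0.24 (adjusted p = 0.000851), just short of the fold threshold, and was called higher under 5 of 16 alternatives.

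**Figure D5:**
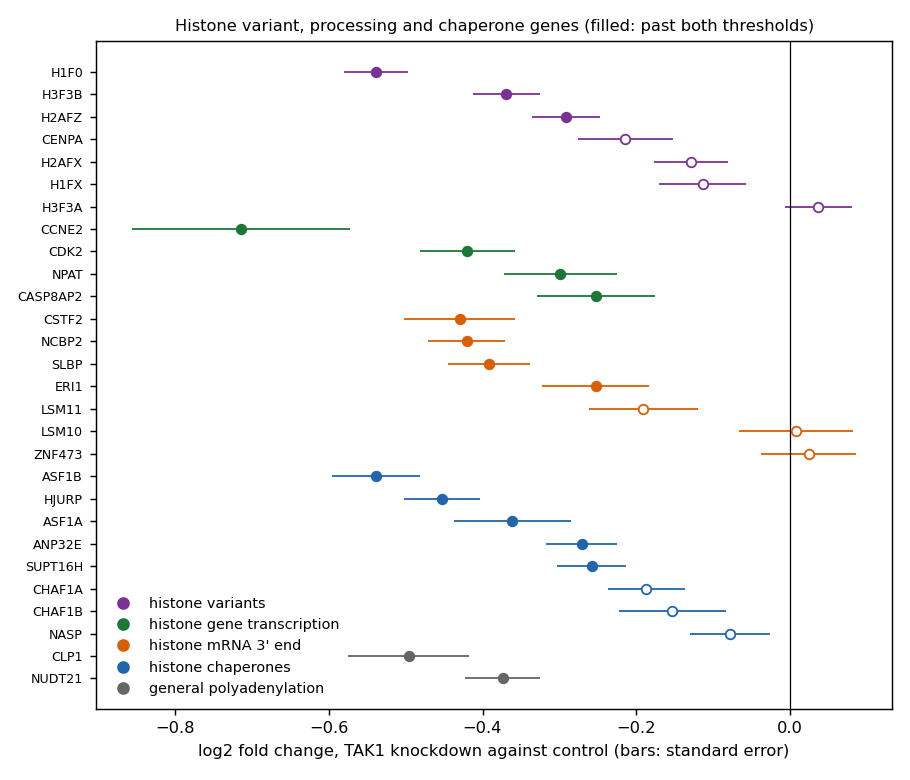
Log2 fold change, with bars for the standard error, of named histone variant, transcription, 3′ end, chaperone and polyadenylation genes in TAK1 knockdown against control samples, filled where the gene passed both thresholds. All filled genes lie below 0, from -0.71 for CCNE2 to -0.25 for CASP8AP2, while LSM10, ZNF473 and H3F3A lie near 0.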

How the data were processed

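The authors deposited raw read counts per gene for 6 libraries, after CASAVA base calling, read filtering and alignment with STAR to GRCh38. The counter, annotation release, strand use and handling of reads with several matches are not given in the sources used here. Groups came from the sample labels. The tested genes held at least 99.9% of the counts, and the common biological coefficient of variation was 5.67%.

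Groups were compared by edgeR 4.0.16 under R 4.3.3 (default expression filter, trimmed mean of M-values, quasi-likelihood test) on all 15935 genes past the filter. Alternatives included DESeq2 1.42.0 and limma 3.58.1 (voom). The fits were also run on simulated data, with changes set only in genes of mean count above 50. That run does not cover the 23 of 35 tested histone cluster genes with a mean count under 50. The 90 symbols were matched to GENCODE 44 through RefSeq synonyms, and all 90 matched. The named genes were every histone cluster gene past the filter, a fixed set of pathway genes and up to 4 more called genes per pathway list with the largest change. Values in every sample were given for the called genes and the 5 cluster genes of highest mean CPM. The members and the lists were chosen with earlier results of these data known.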

Additional observations from a re-analysis of the deposited data

How the results depend on the processing

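The calls of HIST1H2BD, HIST2H2BE, HIST2H2AC and HIST1H2BH kept their direction and passed the test under all 16 alternatives of normalization, tool, filter, fold threshold, replicate block and left-out sample, with adjusted p up to 0.0477. HIST3H2BB did not pass without a filter (adjusted p = 0.109) or in DESeq2, and had too few counts to be tested when 10 counts were required in every library. Without genes sharing over 10% of their windows, an alternative chosen after seeing the data, 1 gene fell in place of 2. Leaving out 1 sample gave 2 to 3 genes that rose, HIST1H2AC and HIST1H1E among them without control replicates 1 and 2, and 2 to 3 that fell, the third being HIST1H3F without control replicate 3. In that fit HIST1H3F had 20 and 20 counts in the control samples and 5, 7 and 7 in the knockdown samples. It was not tested in the main fit and entered this fit only through its control samples, so it had to differ. HIST1H1E likewise entered only through its knockdown samples, and neither gene adds to the count of changed genes.

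Detected members numbered 21 with at least 10 counts in every library, 67 with any count and 35 by the edgeR filter, against 13 in the report. Over all 58735 rows these numbers were 14529, 29336 and 15935, against 13477. With a fold threshold of 0.5 the called genes were 1 variant, 1 of the transcription and 3′ end genes, 1 chaperone and 0 of the polyadenylation genes. With no fold threshold they were 5 variants, all lower, and 12 chaperones, 11 lower and CABIN1 higher. Leaving out 1 sample gave 5 to 9 transcription and 3′ end genes and 3 to 7 chaperones, the lowest of each without knockdown replicate 1. Without knockdown replicate 1, NPAT (-0.23), CASP8AP2 (-0.16), ERI1 (-0.24), ANP32E (-0.24) and SUPT16H (-0.24) missed the fold threshold. So did CASP8AP2, ERI1 and SUPT16H without control replicate 3 (-0.205, -0.23 and -0.22), and ERI1 without knockdown replicate 2 (-0.20). CASP8AP2, ERI1, SUPT16H, ANP32E and H2AFZ missed it with library size alone, at -0.24 to -0.20. Scaling by library size alone moved the share of higher calls over all genes from 51.0% to 62.9% and their median log2 fold change from 0.02 to 0.07.

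Same-numbered samples correlated weakly, at 0.0919, 0.0563 and 0.0353, and differently numbered ones at -0.0988 to 0.0492. These values do not settle whether the replicate numbers pair the samples. A replicate block called 3 histone cluster genes higher and 2 lower, the same genes. The log2 fold changes that changed sign belonged to genes that did not pass the test. HIST1H2BK was at 0.0167 with library size alone. HIST1H2BC was at -0.00239 under RLE, -0.00737 in DESeq2, -0.0867 in limma voom, -0.00299 with no filter and -0.0618 with the replicate block. With 1 sample left out the log2 fold changes ran from -0.0570 to 0.0117 for HIST1H2BK, -0.0435 to 0.0991 for HIST1H1C, -0.47 to 0.0187 for HIST1H2AJ, -0.36 to 0.32 for HIST2H2BD, -0.53 to 0.25 for HIST1H2BC, -0.35 to 0.27 for HIST1H2BJ, -1.10 to 0.12 for HIST1H3C, -0.17 to 0.73 for HIST1H2AE, -1.55 to 0.13 for HIST2H2BF, -0.75 to 0.0934 for HIST1H2AI, -1.22 to 0.33 for HIST1H3G, -0.49 to 0.76 for HIST2H3D and -0.0423 to 0.0715 for LSM10. The cause of these shifts was not tested. Counts under 50 for 23 of the 35 tested genes limit precision.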
